A study of Mus musculus with 8 samples.

Results

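The genes described are 9 members of the T cell factor and catenin pathway: Tcf7, Lef1, Ctnnb1, Jup, Axin1, Axin2, Apc, Tle3 and Tle4. They are 9 of the 17384 genes in the expression table, found by symbol, and all 9 passed the filter on low counts, which left 12340 genes to test. Expression was measured by RNA sequencing in B220+CD3+ cells sorted from spleens of Faslpr mice (4 libraries, called Faslpr) and of Eaf2-/-Faslpr mice (4 libraries, called EAF2Faslpr). Both groups carry Faslpr, a loss-of-function allele of the apoptosis receptor Fas, and cells that stain for B220 as well as CD3 build up in such mice. Only the EAF2Faslpr mice also lack Eaf2, whose product associates with ELL transcription elongation factors. The study asked which signalling pathways tied to apoptosis differ between them; the sources used here do not give the age or strain of the mice, nor which stretch of Eaf2 is missing. Of the 9, 8 were taken for their place in the pathway. Jup was selected on its read counts, which were far higher in the EAF2Faslpr libraries, so its difference between the groups is described here without a test.

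TCF1, the product of Tcf7, and LEF1 are related DNA-binding proteins of the HMG box family that set T cell identity in the thymus and maintain naive and memory-like T cells. They recruit TLE corepressors when alone and beta-catenin, the product of Ctnnb1, when Wnt signalling is on. Without a Wnt signal, a destruction complex built on AXIN and APC marks beta-catenin for degradation. Plakoglobin (gamma-catenin), the product of Jup, is the close relative of beta-catenin: it joins desmosomes and adherens junctions and can also bind TCF factors.

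The windows around 3 start sites are shown because the results turn on Jup, because Axin2 is the textbook target of TCF and beta-catenin, and because 1 Lef1 window alone carried the TCF core. Each runs from 250 bases before to 50 bases after a start site (RefSeq, build GRCm38.p6, whereas the expression files name GRCm39), and capitals mark the core CTTTGA or CTTTGT on either strand. The Jup window is chr11:100397741-100398040 on the minus strand, the Axin2 window chr11:108920099-108920398 on the plus strand and the Lef1 window chr3:131156044-131156343 on the plus strand.

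Jup: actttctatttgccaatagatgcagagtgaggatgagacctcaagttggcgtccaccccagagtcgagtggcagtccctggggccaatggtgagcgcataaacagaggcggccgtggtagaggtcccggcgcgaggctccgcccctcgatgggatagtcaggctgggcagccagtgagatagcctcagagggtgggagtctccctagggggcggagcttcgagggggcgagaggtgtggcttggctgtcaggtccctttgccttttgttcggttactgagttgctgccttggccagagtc
Axin2: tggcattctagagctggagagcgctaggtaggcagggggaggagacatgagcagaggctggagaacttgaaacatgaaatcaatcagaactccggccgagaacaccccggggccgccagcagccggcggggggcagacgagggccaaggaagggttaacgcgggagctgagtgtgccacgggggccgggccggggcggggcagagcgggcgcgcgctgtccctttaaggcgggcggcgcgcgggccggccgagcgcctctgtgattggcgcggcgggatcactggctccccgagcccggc
Lef1: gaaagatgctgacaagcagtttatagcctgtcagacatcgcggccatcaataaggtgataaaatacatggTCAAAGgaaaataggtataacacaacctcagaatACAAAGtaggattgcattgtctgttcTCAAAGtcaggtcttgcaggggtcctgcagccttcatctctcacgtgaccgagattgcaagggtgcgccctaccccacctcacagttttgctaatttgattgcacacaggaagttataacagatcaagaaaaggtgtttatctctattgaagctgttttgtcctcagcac
The Jup and Axin2 windows held no match. The Lef1 window held 3, starting 180, 146 and 120 bases before this start site, while the other 3 Lef1 windows held none. In all, 7 of the 9 genes had windows (13 windows), those of Tcf7, Ctnnb1, Tle3 and Tle4 held no match, and 31.2% of 32851 such windows in the genome held at least 1. Apc and Axin1 had no entry. Gene-level counts do not tell start sites apart, so the share of Lef1 RNA from each window is not known from these values.

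Libraries held between 15.6 and 18.6 megareads, and levels below are in CPM, counts per megaread of the tested genes. A count of 0 allows up to 3 reads, or 0.161 to 0.193 CPM depending on the library, for counting error only. Whether each library is a separate mouse is not stated in the labels. The p-values therefore describe the spread among these libraries, part of which may be technical. Eaf2 was measured at 4.43, 4.20, 4.02 and 6.29 CPM in EAF2Faslpr replicates 1 to 4 and at 25.7, 24.2, 20.7 and 31.5 CPM in Faslpr replicates 1 to 4 (log2 fold change −2.43, SE 0.18, adjusted p = 2.9e-05 by edgeR). Fas itself was at 64.2 ± 6.87 against 54.3 ± 9.82 CPM and did not pass (adjusted p = 0.276), except without Faslpr replicate 4 (0.0415). Over all genes tested, 7.14% rose and 4.96% fell, the background for the marker counts that follow. The tested T cell markers summed to between 4075 and 4300 CPM in EAF2Faslpr and between 3793 and 4624 CPM in Faslpr libraries, and 1 of 10 rose (Cd2). B cell markers rose in 15 of 16 members, with sums between 420.9 and 784 CPM against between 116 and 187 CPM, none of them was at 0 in any library, and EAF2Faslpr replicate 3 had the highest sum. Among MHC class II genes 7 of 9 rose, as did 1 of 10 macrophage markers (Lyz2) and 0 of 5 neutrophil markers by edgeR. The log2 fold change of Lyz2 was 2.94 over all libraries and 1.37 without EAF2Faslpr replicate 3, and its call was lost without Faslpr replicate 1, 2 or 4 (adjusted p = 0.104, 0.112 and 0.0939) and by limma-voom (0.157). Neutrophil markers summed to 107 CPM in EAF2Faslpr replicate 3 and to between 13.3 and 19.4 CPM in the other 7 libraries. Of antibody-secreting cell markers 0 of 7 rose and 1 fell (Xbp1), and dendritic cell (3) and erythroid and platelet (4) markers gave no call by edgeR. Of the neutrophil markers Ly6g, Mpo and Elane were at 0 in at least 1 library, as were Marco and Fcgr1 among the macrophage markers. In bulk RNA, fewer cells of a type and less RNA per cell cannot be told apart.

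Tcf7 and Lef1 were both highly expressed in the 2 genotypes and neither passed the test. Tcf7 was at 914, 859, 948 and 1007 CPM in EAF2Faslpr replicates 1 to 4 and at 758, 674, 898 and 845 CPM in Faslpr replicates 1 to 4. Faslpr replicates 1, 2 and 4 lay below all EAF2Faslpr libraries and Faslpr replicate 3 lay within their range, so the groups overlapped. The log2 fold change, EAF2Faslpr over Faslpr, was 0.23 with a 95% interval from 0.02 to 0.45 and an adjusted p of 0.164. Its unadjusted p was 0.0366, the only one under 0.05 among the 8 genes other than Jup, where 24.9% of all genes tested were under 0.05. Lef1 was at 247, 265, 281 and 288 CPM in EAF2Faslpr and at 292, 295, 268 and 277 CPM in Faslpr libraries. The EAF2Faslpr range included Faslpr replicates 3 and 4, and the log2 fold change was −0.07 (95% interval −0.22 to 0.09, adjusted p = 0.637). Per length, in the authors' FPKM, Lef1 made up 22.8% ± 0.92 (SD, n = 4) of the summed Tcf7 and Lef1 level in EAF2Faslpr and 26.9% ± 3.37 in Faslpr cells. Faslpr replicate 3, at 23.2%, lay inside the EAF2Faslpr range of 21.9% to 23.7%.

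Ctnnb1 was the abundant catenin and differed little, while Jup was a minor catenin in both groups and stood far higher in EAF2Faslpr cells. Ctnnb1 was at 374, 355, 344 and 378 CPM in EAF2Faslpr and at 419, 357, 413 and 406 CPM in Faslpr libraries. Faslpr replicate 2 lay within the EAF2Faslpr range and the other 3 Faslpr libraries lay above it. The log2 fold change was −0.14 (95% interval −0.30 to 0.02, adjusted p = 0.287). Jup was at 24.4, 31.0, 33.1 and 28.0 CPM in EAF2Faslpr replicates 1 to 4 (380, 567, 600 and 507 rounded reads). In Faslpr replicates 1 to 4 it was at 4.53, 4.05, 2.86 and 3.82 CPM (79, 68, 52 and 71 reads). The lowest EAF2Faslpr library was thus above the highest Faslpr library, and the difference of 7.63-fold (29.1 ± 3.76 against 3.81 ± 0.700 CPM) is the value for which the gene was chosen. The B cell markers summed to 421, 441, 784 and 430.0 CPM in EAF2Faslpr replicates 1 to 4, and their part in the level of Jup was not tested.

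**Figure D1:**
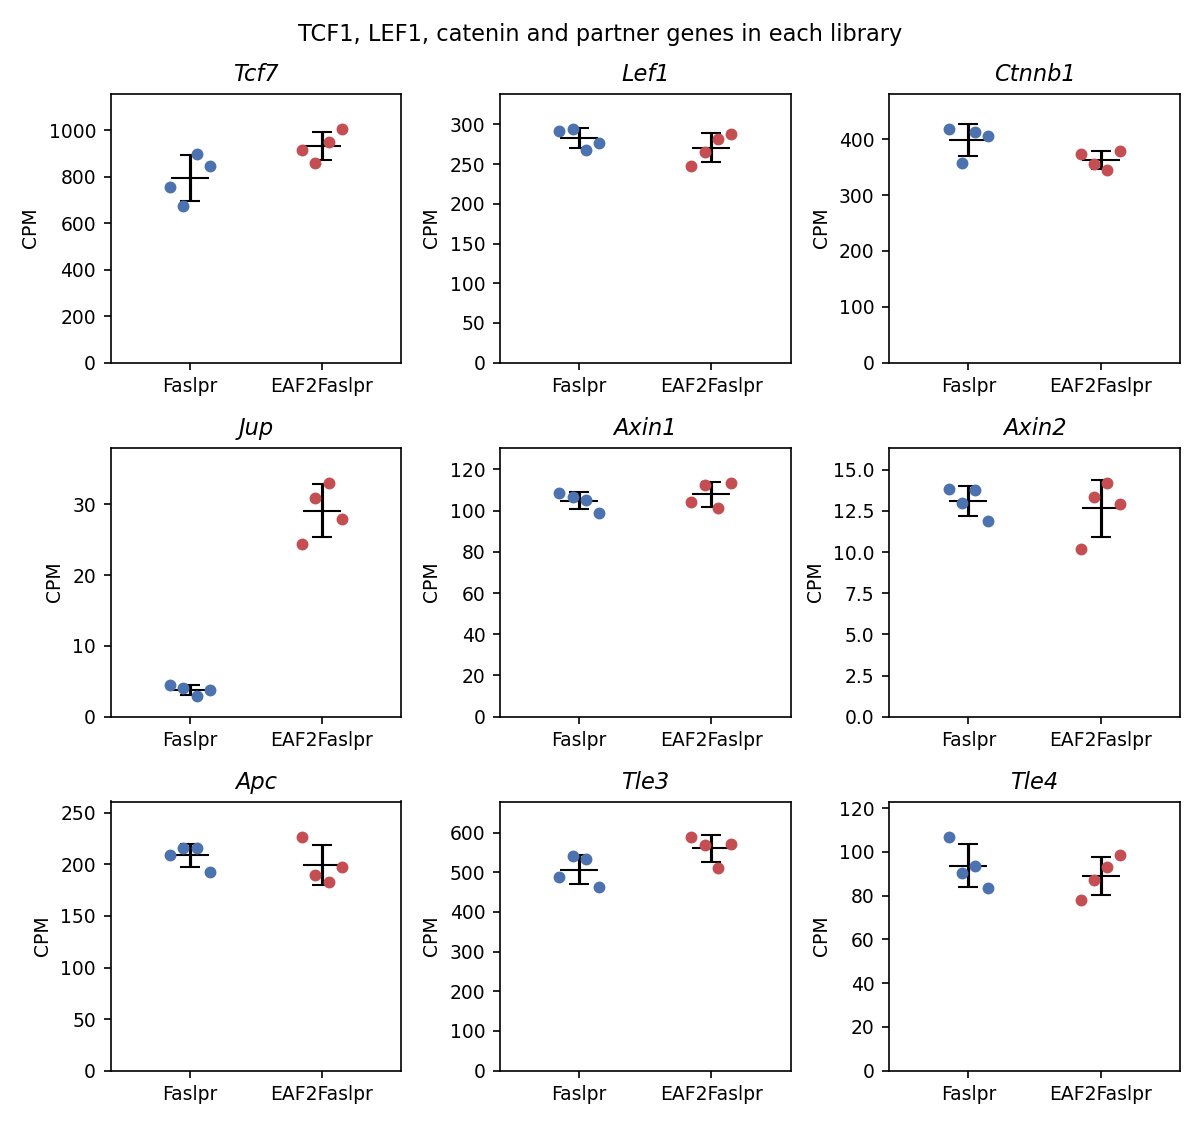
Counts per megaread (CPM, linear axes from 0) of the 9 genes in the 4 Faslpr (blue) and 4 EAF2Faslpr (red) libraries, replicates 1 to 4 from left to right, with the group mean and SD as black bars. The groups are separate for Jup, at 2.86 to 4.53 against 24.4 to 33.1 CPM, and overlap for each of the other 8 genes.

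Per length, Jup made up 7.82% ± 1.24 of the summed Jup and Ctnnb1 FPKM in EAF2Faslpr cells and 1.01% ± 0.198 in Faslpr cells (SD, n = 4 each). The summed level of both catenins was 115 ± 2.76 FPKM in EAF2Faslpr and 116 ± 7.62 FPKM in Faslpr cells. The library ranges of this sum, 112.1 to 117.8 and 105.0 to 121.0 FPKM, overlapped.

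On chromosome 11, P3h4 and Fkbp10 beside Jup were higher as well. Eif1 and Krt10 on its other side were not called higher by edgeR over all libraries. In the RefSeq gene order of GRCm38.p6, the next tested genes on one side are P3h4 and Fkbp10, which encode endoplasmic reticulum proteins of collagen hydroxylation and folding. P3h4 was at 5.01, 4.42, 4.74 and 4.08 CPM in EAF2Faslpr and at 0.287, 0.179, 0.385 and 0.430 CPM in Faslpr libraries. It rose 13.9-fold (log2 fold change 3.79, SE 0.27, adjusted p = 2.02e-05), from 3 to 8 reads per Faslpr library to between 74 and 86. Fkbp10 was at 2.12, 2.89, 2.92 and 1.77 CPM in EAF2Faslpr and at 0.0573, 0.238, 0.220 and 0.269 CPM in Faslpr libraries. It rose 11.9-fold (adjusted p = 0.000294), from a Faslpr level near the floor, 1 to 5 reads per library. P3h4 and Fkbp10 passed the filter on low counts only through their EAF2Faslpr libraries, so their adjusted p values do not count as support. Over all genes tested, 1.39% were at least 4-fold higher in EAF2Faslpr. On the other side, Eif1, a translation initiation factor, was at 589.6 ± 54.4 against 465 ± 62.2 CPM and did not pass (adjusted p = 0.0579). Eif1 did pass, as higher, by DESeq2, without EAF2Faslpr replicate 1, without Faslpr replicate 4 and without both libraries numbered 4. The keratin gene Krt10 fell 2.03-fold from 2.46 ± 0.531 CPM and lost its call in 6 of the 8 fits that left out 1 library (adjusted p up to 0.0773).

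**Figure D2:**
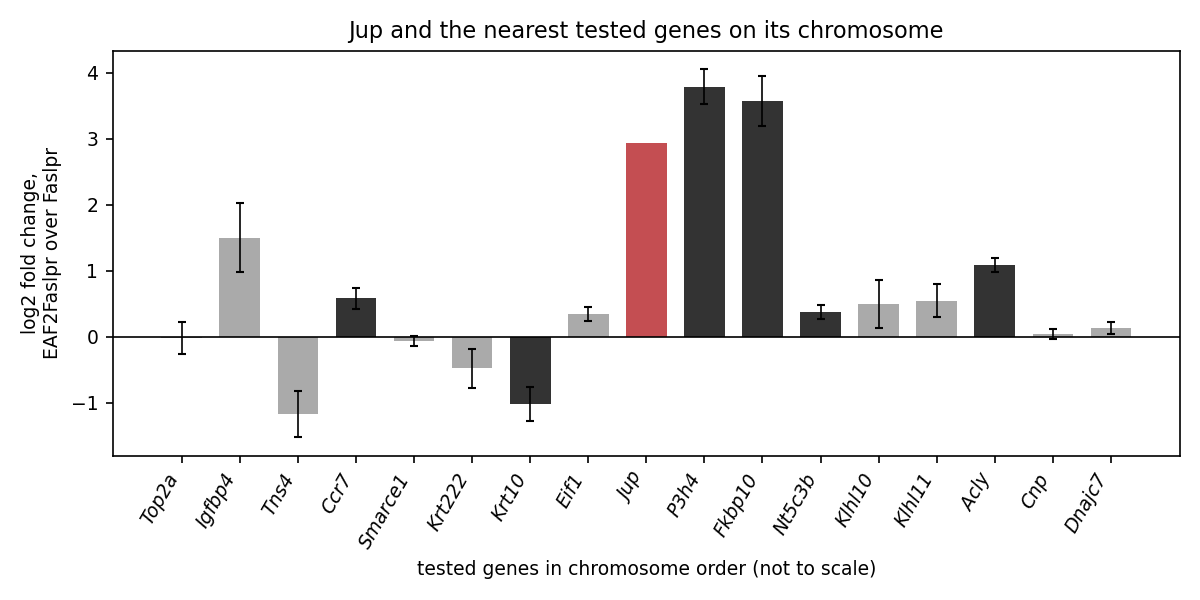
Log2 fold change (EAF2Faslpr over Faslpr, y axis) of Jup (red) and the 8 nearest tested genes on each side in chromosome order, with standard errors and with genes past an adjusted p of 0.05 in black and the others in grey. Jup, P3h4 and Fkbp10 stand side by side at 2.93, 3.79 and 3.58, and the other genes lie closer to 0.

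A wider stretch of 8 tested genes on each side was examined after these values were seen. Of the 16 genes, 5 rose (Ccr7, P3h4, Fkbp10, Nt5c3b and Acly) and 1 fell (Krt10), where 7.14% of all genes tested rose and 4.96% fell. P3h4 and Fkbp10 entered this count only through their EAF2Faslpr reads. The stretch is centred on a gene chosen for its rise, so this contrast does not test it. Ccr7 lost its call in 6 of 8 fits that left out 1 library (adjusted p up to 0.116). Acly, which makes cytosolic acetyl-CoA, rose 2.12-fold (557 ± 66.8 against 262 ± 29.0 CPM, adjusted p = 0.000198). Nt5c3b was at 95.9 ± 13.5 against 74.2 ± 6.19 CPM and lost its call in 6 of 8 fits that left out 1 library (adjusted p up to 0.130). Hap1, which lies between Eif1 and Jup and was too low to test, had 14, 11, 10 and 9 estimated reads in EAF2Faslpr and 2.17, 0.62, 3.0 and 5.9 in Faslpr libraries. The sources used here do not give the strand setting, so reads of overlapping genes cannot be told apart. Tcf7, also on chromosome 11, had neighbours that did not pass: Skp1, Ppp2ca, Vdac1 and 9530068E07Rik had log2 fold changes of −0.01, −0.06, 0.15 and 0.12.

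The scaffold genes of the destruction complex gave nearly the same levels in both genotypes. Axin1, which holds the complex together, was at 104, 113, 101 and 114 CPM in EAF2Faslpr and at 108, 107, 105 and 98.9 CPM in Faslpr libraries. Axin2, a homologue induced by beta-catenin itself and read as a reporter of Wnt activity, was at 10.2, 13.3, 14.2 and 12.9 against 13.8, 13.0, 13.8 and 11.9 CPM. EAF2Faslpr replicate 1 was the lowest of all 8 libraries for Axin2 and replicate 3 the highest. Apc, the tumour suppressor that carries beta-catenin to the complex, was at 227, 189.8, 183 and 198 against 209, 216, 216 and 193 CPM. For each of the 3 genes the Faslpr libraries lay within or across the EAF2Faslpr range. Their log2 fold changes were 0.04 for Axin1 (95% interval −0.10 to 0.19), −0.05 for Axin2 (−0.32 to 0.23) and −0.07 for Apc (−0.24 to 0.11), with adjusted p of 0.750, 0.859 and 0.684. The interval of Axin2 is the widest among the 8 genes other than Jup, at a level of only 3.01 ± 0.414 FPKM in EAF2Faslpr and 3.11 ± 0.206 FPKM in Faslpr cells.

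The corepressor genes did not pass either. Tle3 was at 589.8, 568, 511 and 572 CPM in EAF2Faslpr and at 487, 540.3, 533 and 464 CPM in Faslpr libraries. EAF2Faslpr replicate 3 lay among the Faslpr libraries and the other 3 lay above them (log2 fold change 0.15, 95% interval −0.02 to 0.32, adjusted p = 0.275). Tle4 was at 78.0, 87.2, 93.0 and 98.3 against 107, 90.4, 93.4 and 83.4 CPM. Its groups overlapped almost fully (log2 fold change −0.07, 95% interval −0.28 to 0.14, adjusted p = 0.722). Tle4 was 16.7% ± 2.07 of the summed Tle3 and Tle4 FPKM in EAF2Faslpr and 18.9% ± 1.73 in Faslpr cells.

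Among the 8 genes other than Jup, 0 rose and 0 fell by edgeR, where 12.1% of all genes tested passed (7.14% higher and 4.96% lower). DESeq2 and limma-voom also called 0, and 1 of the 8 had an unadjusted p under 0.05. The groups did not overlap for 0 of the 8, against 17.7% of all genes tested. The 8 were chosen with earlier results of these data known, so these contrasts do not test them. Their median log2 fold change was −0.06, that of all genes tested −0.01, and their 95% intervals all lay between −0.32 and 0.45. These intervals bound what the 8 libraries leave possible and do not show that the levels were equal.

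**Figure D3:**
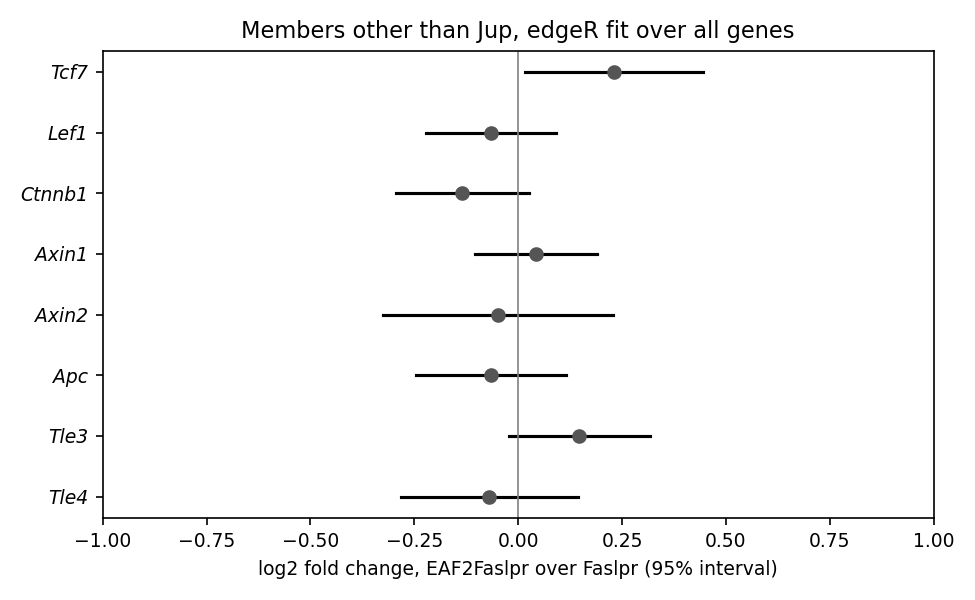
Log2 fold change (EAF2Faslpr over Faslpr, x axis) with its 95% interval from the edgeR fit for the 8 genes other than Jup. Point values run from −0.14 for Ctnnb1 to 0.23 for Tcf7, and Jup is left out because it was chosen for its difference.

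By level per length in Faslpr cells the order was Tcf7 at 297 ± 37.1 FPKM, Ctnnb1 at 115 ± 7.66, Lef1 at 108 ± 5.10, Tle3 at 98.2 ± 7.54, Axin1 at 31.2 ± 0.680, Tle4 at 22.8 ± 1.85, Apc at 18.5 ± 1.17, Axin2 at 3.11 ± 0.206 and Jup at 1.17 ± 0.203 FPKM (SD, n = 4). Tcf7 stood above 98.7% of all genes tested by its mean FPKM over the 8 libraries, and Axin2 above 24.8%. Ctnnb1 and Lef1, and Lef1 and Tle3, did not differ beyond their spread, whereas Tcf7, Axin1 and Axin2 stood clear of their neighbours. In EAF2Faslpr cells Tle3 (110 ± 5.91 FPKM), Ctnnb1 (106 ± 3.83) and Lef1 (104 ± 6.91) again lay within each other's spread below Tcf7 (352 ± 23.1). Jup, at 8.95 ± 1.24 FPKM, stood above Axin2 there, and last in Faslpr cells. Between libraries of a group the variation (SD over mean CPM) was smallest for Axin1 in Faslpr, 3.91%, and largest for Jup in Faslpr, 18.4%; for Tcf7 it was 6.65% in EAF2Faslpr and 12.4% in Faslpr.

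Other genes of the Wnt and catenin pathway were read from 6 lists by role, 151 genes of which 83 were tested. Of these 7 rose (8.43%) and 8 fell (9.64%), against 7.14% and 4.96% of all genes tested. The lists were chosen with earlier results of these data known, so this contrast does not test them. The B cell and MHC class II increases given above fell in the same 4 libraries, and their part in the changes below was not tested.

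Of 32 listed ligand, secretion and inhibitor genes 28 were in the table and 7 had enough reads to be tested. Of these 1 rose and 1 fell, at a median log2 fold change of −0.14. Wls, the carrier that brings Wnt proteins to the cell surface, rose from 2.40 ± 0.355 to 7.20 ± 1.97 CPM (2.99-fold, adjusted p = 0.00169). Wnt10a, the most abundant ligand gene, fell 2.59-fold (26.3 ± 11.6 against 68.3 ± 16.0 CPM, adjusted p = 0.0179). Its EAF2Faslpr libraries were at 10.8, 24.2, 35.5 and 34.7 CPM and its Faslpr libraries at 69.7, 71.0, 46.9 and 85.7 CPM, so replicate 1 was the lowest of the EAF2Faslpr group. The call was lost when both libraries numbered 4 were left out (adjusted p = 0.0567).

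Among 11 receptor and receptor turnover genes 1 rose and 2 fell, at a median log2 fold change of −0.23. Lgr5, a receptor for R-spondins that marks epithelial stem cells, fell 2.35-fold from 31.5 ± 7.52 to 13.4 ± 2.36 CPM (adjusted p = 0.00184). Rnf43, a ubiquitin ligase that removes Frizzled receptors, rose 2.15-fold (35.0 ± 5.16 against 16.2 ± 4.38 CPM, adjusted p = 0.00282). Kremen1, a co-receptor of the DKK inhibitors, fell 1.43-fold (193 ± 20.6 against 277 ± 26.1 CPM, adjusted p = 0.00628). The co-receptor Lrp6 was at 340.2 to 419.8 CPM in EAF2Faslpr libraries and at 539, 533, 452 and 280.3 CPM in Faslpr replicates 1 to 4, lowest in the last. It did not pass over all libraries (adjusted p = 0.470) and passed without Faslpr replicate 4, at a log2 fold change of −0.40 (adjusted p = 0.0220).

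Of 24 tested Dishevelled and destruction complex genes 1 rose and 0 fell by edgeR, at a median log2 fold change of 0.07. Frat2, a binder of the kinase GSK3, was at 45.5 ± 4.64 against 32.1 ± 5.91 CPM and lost its call in 5 of 8 fits that left out 1 library (adjusted p up to 0.0852). Gsk3b, which phosphorylates beta-catenin, was at 177 ± 19.0 against 181 ± 18.5 CPM (adjusted p = 0.870). Ppp2ca, the most abundant of the list per length, had one of −0.06.

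Nuclear partners of TCF and catenin had 1 of 19 higher and 1 lower, at a median log2 fold change of −0.003. Both belong to the BCL9 pair that links beta-catenin to PYGO proteins: Bcl9l rose 1.60-fold (36.4 ± 2.20 against 22.7 ± 3.68 CPM, adjusted p = 0.00428) and Bcl9 fell 1.38-fold (48.8 ± 3.88 against 67.2 ± 9.36 CPM, adjusted p = 0.0163). Tcf7l1, another TCF gene, was close to silent at 1.04 ± 0.449 against 1.04 ± 0.0756 CPM, and Tcf7l2 was too low to test. Tle5, a short TLE relative, was at 162 ± 19.6 against 144 ± 42.0 CPM and did not pass (adjusted p = 0.644). Hdac1, the most abundant gene of this list per length, had a log2 fold change of −0.02.

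Among 9 tested genes of the Wnt target list, 1 rose and 1 fell, at a median log2 fold change of −0.08. Axin2 is not in that list, nor are Lgr5 and Rnf43, which were counted above with the receptors. Id2, an inhibitor of E proteins, rose 2.33-fold (52.5 ± 17.1 against 22.5 ± 4.43 CPM, adjusted p = 0.00570). Ccnd2, which encodes cyclin D2, fell 1.33-fold (719 ± 63.7 against 955 ± 85.7 CPM, adjusted p = 0.0147). Myc, at 99.4 ± 5.57 against 112 ± 17.5 CPM, missed the threshold (adjusted p = 0.370).

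T cell genes known to be tied to TCF1 and LEF1 changed in 9 of 24 tested members, 7 higher and 2 lower. Of all genes tested 12.1% passed (7.14% higher and 4.96% lower), and the median log2 fold change of the list was 0.05. The list was chosen with earlier results of these data known, so this contrast does not test it. Satb1, a chromatin organiser of T cell development, was at 16.4, 19.2, 24.5 and 19.0 CPM in EAF2Faslpr and at 4.07, 2.98, 5.89 and 4.73 CPM in Faslpr libraries, and rose 4.46-fold (adjusted p = 0.000154). Il7r, the interleukin 7 receptor of naive and memory T cells, rose 5.29-fold (11.5 ± 3.94 against 2.16 ± 1.21 CPM, adjusted p = 0.00222). Gata3 rose 2.98-fold from 1.85 ± 0.549 CPM, and Themis, a T cell signalling gene, 2.45-fold from 4.95 ± 1.28 CPM. In each of these 4 genes the lowest EAF2Faslpr library was above the highest Faslpr library. The groups did not overlap for 17.7% of all genes tested, and these 4 were chosen among genes that passed. Other genes of the list, such as Il2rb and Cxcr5, were also separate between the groups. Il2rb, Zeb2 and Ccr7 also rose, by 1.32-fold, 1.75-fold and 1.50-fold, and all 3 lost their calls without Faslpr replicate 2 (4 genes then rose). The call of Ccr7 was lost in 6 of 8 fits that left out 1 library (adjusted p up to 0.116), that of Zeb2 in 4 (up to 0.0780) and that of Il2rb in 2 (up to 0.0592).

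In the same list Cxcr5, the chemokine receptor of follicular helper T cells and B cells, fell 1.52-fold (240 ± 22.2 against 364 ± 19.7 CPM, adjusted p = 0.00114) and S1pr1, an egress receptor, fell 1.44-fold. Abundant members that did not pass were Eomes, a T-box factor of memory-like and cytotoxic cells, at 1540 ± 113 against 1794 ± 137 CPM, and Myb at 1152 ± 91.2 against 1247 ± 108 CPM (adjusted p = 0.119 and 0.470). Some list genes, Ccr7 and Cxcr5 among them, are also expressed by B cells, whose markers rose in the EAF2Faslpr libraries, and the share of either cell type was not measured here.

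**Figure D4:**
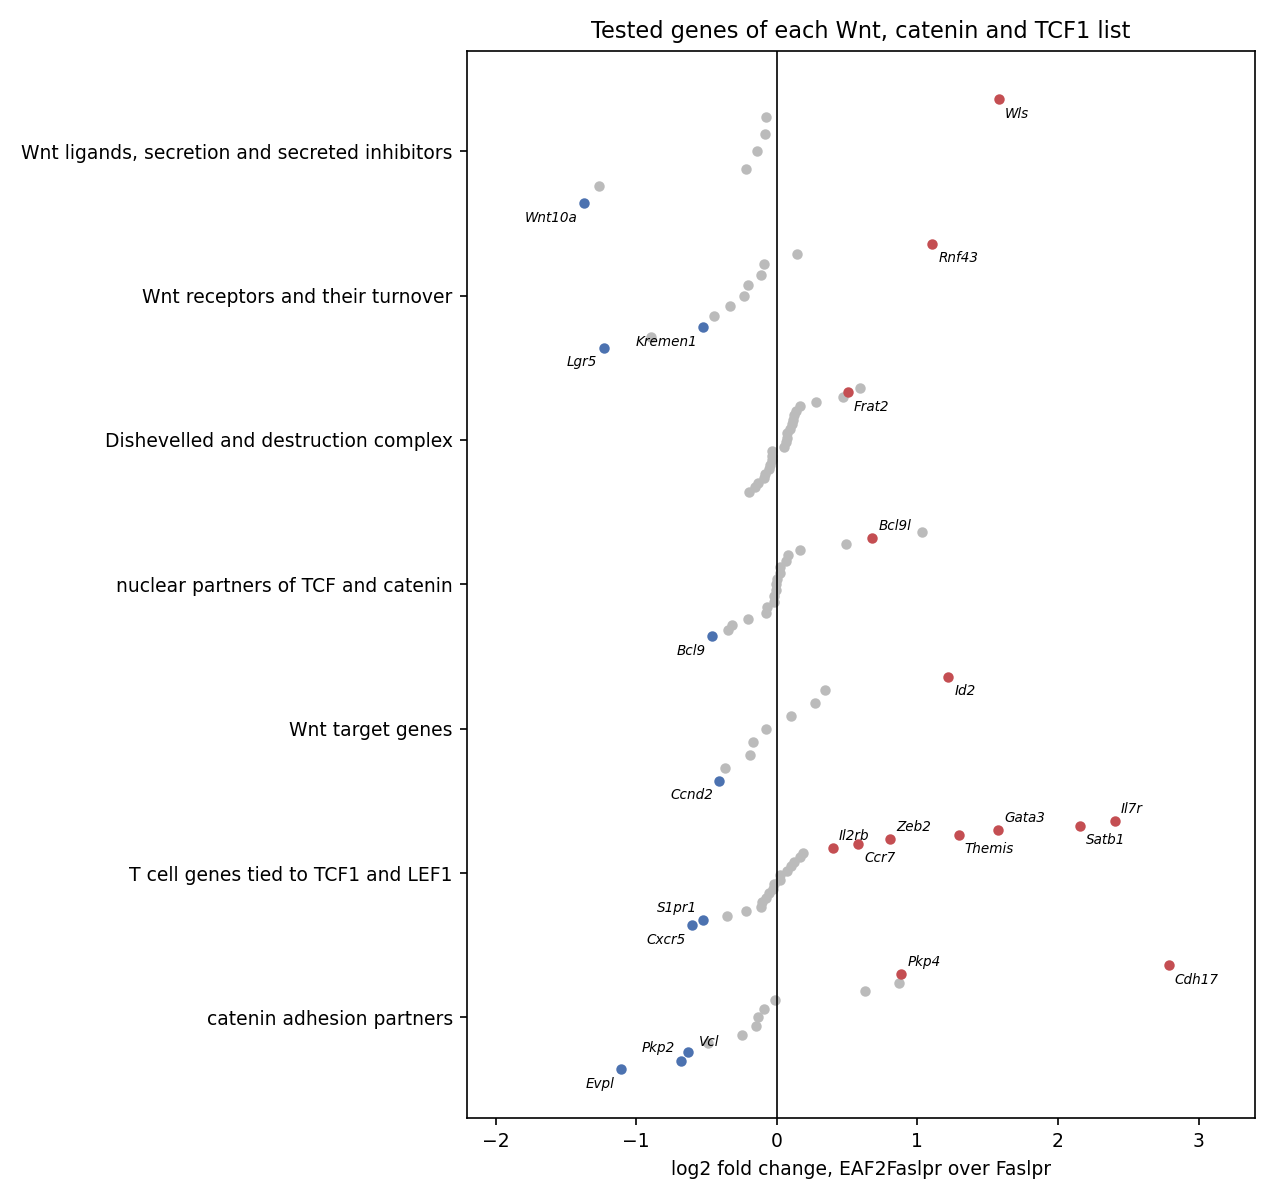
Log2 fold change (EAF2Faslpr over Faslpr, x axis) of every tested gene in the 6 Wnt and catenin lists and the list of T cell genes tied to TCF1 and LEF1, each point a gene, red where it rose, blue where it fell and grey where it did not pass. Most points of the Dishevelled and nuclear lists lie near 0, and Satb1 (2.16) and Il7r (2.40) lie farthest to the right in the T cell list.

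Genes of the catenin adhesion list, not all of them partners of plakoglobin, changed in both directions. Of 13 tested 2 rose and 3 fell, where 7.14% of all genes tested rose and 4.96% fell. Their median log2 fold change was −0.13. Desmoplakin, the product of Dsp, ties plakoglobin to the keratin network in desmosomes, and Dsp was the most abundant gene of the list at 592 ± 148 CPM in EAF2Faslpr and 655 ± 64.2 CPM in Faslpr cells. Its libraries ranged from 431 (replicate 3) to 778 CPM (replicate 1) in EAF2Faslpr and it did not pass (adjusted p = 0.634). Evpl, which encodes the plakin envoplakin, fell 2.15-fold (47.1 ± 5.58 against 101 ± 17.5 CPM, adjusted p = 0.000534), and Vcl (vinculin) fell 1.55-fold (adjusted p = 0.00415). Pkp4, an armadillo protein of junctions, rose 1.85-fold (16.4 ± 3.38 against 8.86 ± 0.742 CPM, adjusted p = 0.00464). Cdh17, a cadherin, rose 6.90-fold but from 1 to 5 reads per Faslpr library to between 18 and 20 (adjusted p = 0.00253). Like P3h4 and Fkbp10, Cdh17 passed the filter only through its EAF2Faslpr libraries. Pkp2, a plakophilin, was at 3.94 ± 0.242 against 6.31 ± 1.36 CPM, and its call (lower, adjusted p = 0.0361) ended in 6 of 8 fits lacking 1 library. Ctnna1 (alpha-catenin), which both catenins bind, was at 204 ± 16.1 against 223 ± 5.95 CPM (adjusted p = 0.292). Of the epithelial, endothelial and stromal markers 2 of 7 rose, Col1a1 (2.31-fold) and Pecam1, where 7.14% of all genes tested rose. The other collagen genes tested in that list did not pass, at log2 fold changes of −0.10 and −0.34. The markers summed to between 453 and 599 CPM in EAF2Faslpr and between 444.5 and 549.8 CPM in Faslpr libraries. Cdh5 was at 0 in at least 1 library, and Epcam, the most abundant of them per length, was at 269 ± 47.4 against 333 ± 39.9 CPM (adjusted p = 0.185).

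The genes most like Jup over the 8 libraries were found by the root mean square difference between centred log2 CPM profiles among 9685 genes of at least 5 CPM. They were Sh2b2, an adaptor of receptor kinases, at 0.315, Reep1, an endoplasmic reticulum shaping protein, at 0.345, and Ppp1r15a, the stress-induced GADD34, at 0.369 log2 units. Sh2b2 was at 10.9 ± 3.97 against 1.38 ± 0.0739 CPM, Reep1 at 54.8 ± 18.2 against 6.92 ± 0.956 CPM and Ppp1r15a at 105 ± 19.3 against 20.1 ± 4.43 CPM. The profiles nearest to Tcf7 were those of Tmco1, Ccdc171 and Nfya (0.0569, 0.0595 and 0.0624 log2 units) and those nearest to Lef1 were Edc4, Vps39 and Spout1 (0.0369, 0.0369 and 0.0400), and none of these 6 passed the test. All profiles come from the same 8 libraries, and the order describes likeness only. The profile of Jup is set mostly by the group difference for which it was chosen. P3h4 and Fkbp10 lay below 5 CPM on average and were not among the genes compared.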

How the data were processed

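RNA of sorted B220+CD3+ spleen cells was measured in 8 libraries, grouped by the sample titles. Per the labels' protocols, RNA was extracted with TRIzol and made into mRNA libraries for DNBSEQ sequencing. The authors deposited, for each library, estimated counts, which keep library depth, and FPKM, which is scaled to gene length and depth. Per the submitters' processing notes, HISAT2 2.2.1, Bowtie2 2.4.5, RSEM 1.3.1 and build GRCm39 were used, with roles, annotation and strand setting not given in the sources used here. Estimated counts divide reads that match several genes. A further 16 per-sample columns (TPM and normalised counts) were not used.

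Estimated counts were rounded, filtered with filterByExpr (12340 of 17384 genes kept), scaled with TMM factors and tested with edgeR 4.0.16 (R 4.3.3) by glmQLFit and glmQLFTest over all 8 libraries, with Benjamini-Hochberg adjustment over all genes tested and a threshold of 0.05. Adjusted p values come from it where no tool is named. Intervals use the fit's standard error and degrees of freedom. The script was tested on simulated data. CPM uses TMM-scaled totals of tested genes, and ± gives the SD over 4 libraries. The authors' FPKM was used only to compare levels between genes, with no test. Replicates of a group differed by chi-square values per degree of freedom of 9.46 to 36.7, so none was a repeat deposit. Alternatives were DESeq2 1.42.0, limma-voom (limma 3.58.1), other scalings and filters, a replicate block and leaving out libraries.

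Members and lists were chosen with earlier results of these data known. Named genes followed a rule: the 9 members; Eaf2 and Fas; in each pathway list up to 4 passing genes by smallest p and the most abundant gene; in each marker list 1 passing gene and the most abundant; the 3 profiles nearest to Tcf7, Lef1 and Jup; and the 2 nearest tested genes on each side of Jup and Tcf7. A gene that this rule names is not reported here. Genes chosen only once their values had been seen were Themis, Il2rb, Zeb2, Ccr7, S1pr1, Eomes, Myb, Pkp2, Nt5c3b, Acly, Hap1, Myc, Gsk3b, Tcf7l1, Tcf7l2, Ctnna1, Tle5, Lrp6 and Pecam1, with the wider neighbours of Jup. Gene order came from the RefSeq table of GRCm38.p6, matched by gene number for 12253 of the tested genes. Promoter windows came from RefSeq, and letters were searched on both strands. The marker lists were T cell, B cell, MHC class II, antibody-secreting cell, macrophage, neutrophil, dendritic cell, erythroid and platelet, and epithelial, endothelial and stromal genes.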

Additional observations from a re-analysis of the deposited data

Results flagged for a closer look

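In 12 of 180 groups of 4 libraries (90 named or neighbouring genes), 1 library's gap to the nearest other as a share of the group's range exceeded Dixon's 95% critical value, where chance flags about 1 in 20 groups. None of the 9 pathway members was among them. EAF2Faslpr replicate 3 was highest for Pax5 (48.3 CPM, others 26.1 to 27.6, gap 0.932 of the range), Cd79a (99.6 CPM, others 41.9 to 50.1, gap 0.858), Lyz2 (75.1 CPM, others 6.36 to 10.5, gap 0.939) and S100a8 (24.9 CPM, others at most 1.6, gap 0.961). Faslpr replicate 3 was highest for Il7r (3.96 CPM, others 1.37 to 1.72, gap 0.865) and Lyz2 (5.94 CPM, others 2.06 to 2.69, gap 0.839). Faslpr replicate 4 was highest for Lat (881 CPM, others 632 to 675, gap 0.83) and Hbb-bs (9.04 CPM, others 1.89 to 2.48, gap 0.918). Faslpr replicate 2 was highest for Bcl9 (81.1 CPM, others 61.2 to 64.0, gap 0.859), and Bcl9 still fell without it (log2 −0.36, adjusted p = 0.0332). EAF2Faslpr replicate 1 was lowest for Edc4 (113 CPM, others 124 to 125, gap 0.921). EAF2Faslpr replicate 2 was highest for Cnp (193 CPM, others 174 to 176, gap 0.909). Faslpr replicate 1 was lowest for Igfbp4 (0.458 CPM, others 0.968 to 1.01, gap 0.92).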

How the results depend on the processing

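The 8 genes other than Jup had 0 calls in either direction under each of the 16 alternatives. Over all genes, 881 rose and 612 fell, 618 to 940 and 372 to 659 when single libraries were left out; the lowest counts came without Faslpr replicate 2. With a mean of at least 5 CPM 576 rose (9931 genes tested), and 403 fell without both libraries numbered 4. DESeq2 called more genes in all, 1065 higher and 833 lower. With it 2 ligand genes fell, 2 nuclear partners rose and 2 fell, and 2 target genes fell. Without a filter 2 ligand genes rose, and with at least 5 CPM 0 ligand genes and 1 adhesion gene did. Without both libraries numbered 4, 0 ligand genes fell, 0 destruction complex genes rose and 2 target genes fell. Leaving out single libraries gave 0 to 1 destruction complex genes higher, 1 to 2 nuclear partners higher and 1 to 2 lower, 1 to 2 targets lower, 2 to 3 receptors lower, 4 to 7 T cell genes higher and 2 to 3 lower, and 2 to 3 adhesion genes higher and 2 to 3 lower. The cause of these shifts was not tested, other than the genes left in by each filter.

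With the replicate block 854 genes rose, 571 fell, 2 nuclear partners fell and Pkp2 lost its call. Same-numbered libraries had correlations of deviations of 0.221, 0.246, 0.0314 and −0.0881. Differently numbered ones ran from −0.389 (EAF2Faslpr replicate 3, Faslpr replicate 1) to 0.234 (EAF2Faslpr replicate 3, Faslpr replicate 4). The ranges overlap, and so few values cannot show whether the numbers mark matched samples. At low depth, P3h4, Fkbp10 and Cdh17 rest on few Faslpr reads.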
